A study of Drosophila melanogaster with 5 samples.

Results

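The nuclear genes for subunits of complex III, complex IV and the ATP synthase, with the genes for cytochrome c, were compared between mutant and wild-type Drosophila melanogaster larvae. The genes were taken by name: every FlyBase symbol that begins with COX, UQCR or ATPsyn, and in addition blw, RFeSP, Cyt-c1, Cyt-c-p and Cyt-c-d. This gave 45 of the 17735 genes counted, of which 16 belonged to the ATP synthase, 11 to complex III, 16 to complex IV and 2 were cytochrome c genes. The rule reads names only. Of the 45 genes, 29 are the commonly expressed forms, and 16 are the like-named copies (symbols ending in L or L2) together with Cyt-c-d, the cytochrome c gene of the male germ line.

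RNA-seq was performed on poly(A) RNA of whole third-instar larvae in 3 CG1603attP libraries and 2 y1w1118 libraries, described in the methods of the study as biological replicates. CG1603 encodes Mzfp1, a zinc-finger protein bound at promoters of housekeeping genes, and the question was how expression changes without it. In the CG1603attP larvae, both copies of the gene carried a CRISPR deletion of most of CG1603, replaced by an attP site and a 3P3:dsRed marker. The results of the study place the deletion in the y1w1118 line, which carries the y1 and w1118 alleles. Its methods name another stock for the injected embryos, and flies with the marker were then crossed with a y1w1118 balancer line. The mutant larvae are given as y1w1118, so both groups share these alleles. Other differences in background between the groups cannot be told apart from the deletion. Homozygous larvae were collected from parents balanced with CyO GFP, and such homozygotes die as larvae. The larvae of a library were taken by weight, and the labels give neither their number nor their sex or age in hours.

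Complex III (ubiquinol-cytochrome c reductase), cytochrome c and complex IV (cytochrome c oxidase) pass electrons from ubiquinol to oxygen and pump protons across the inner mitochondrial membrane. The ATP synthase lets the protons return and makes ATP: its F1 head holds the catalytic sites, its membrane part holds the rotating c ring, and a peripheral stalk joins them. Complexes III, IV and the ATP synthase each combine subunits from nuclear genes with a few encoded by the mitochondrial DNA (mtDNA). All 3 are abundant in muscle, and in flies several subunits have a second gene used in the testis.

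A level is given here as CPM, the reads of a gene relative to all reads on genes after TMM scaling, and library values are given in the order of replicates 1, 2 and 3 of CG1603attP and replicates 1 and 2 of y1w1118. Means carry the SD, with n = 3 for CG1603attP and n = 2 for y1w1118, and the error of a log2 fold change is its SE. Between 9044930 and 14514277 reads per library were analysed, and 1 read was worth from 0.0668 to 0.116 CPM, so that 3 reads, taken as the floor, were from 0.200 to 0.348 CPM. CG1603 itself had 124 and 102 reads in y1w1118 and 0, 0 and 3 in CG1603attP, in the direction the labels give (edgeR adjusted p = 0.00445). The 29 commonly expressed genes include UQCR-14, which had no unstranded reads and is described with complex III. The other 28 passed the filter on low counts, and so did 2 of the 16 copies, UQCR-11L and UQCR-6.4L.

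Expression of these genes was lower in CG1603attP larvae. Of the 30 members tested, 22 passed as lower at an adjusted p of 0.05 and 0 as higher, by the quasi-likelihood test of edgeR and Benjamini-Hochberg adjustment across the whole table. Among the 11045 genes in the fit, 15.7% passed as lower and 14.6% as higher, 30.4% in either direction. With no adjustment, at p under 0.05, 23 members were lower and 0 higher. DESeq2 called 23 lower and 0 higher. The median log2 fold change was -0.96 over the members tested, -1.05 over the 28 commonly expressed genes, and -0.01 over all genes tested. All 28 had a negative fold change, from -2.00 for ATPsynbeta to -0.21 for UQCR-C1. In 24 of the 30 members every CG1603attP library lay below every y1w1118 library, against 30.8% of all genes tested, and in 1, UQCR-11L, every one lay above (28.9% of all genes). The members are highly expressed, and of the 6106 genes within the range of mean level of the 28, 21.7% were lower and 21.9% higher.

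The members together took 0.791%, 0.867% and 0.967% of the analysed reads of the CG1603attP libraries and 1.98% and 1.97% of those of y1w1118. Their summed level was 7662, 8075 and 9533 CPM in CG1603attP and 21340 and 20660 CPM in y1w1118, so that the mutant mean was 40.1% of the wild-type mean. The mutant mean of the summed level was 34.9% of the wild-type mean for the ATP synthase, 40.1% for cytochrome c, 54.2% for complex IV and 67.2% for complex III. In each of these 4 sums, every mutant library lay below both wild-type libraries. The summed level of 18 body wall muscle markers, described with the other cell types at the end, was 30.2% of the wild-type mean, and its part in these values was not tested. Only 2 wild-type libraries were available, and the counts of members called rest on both: 14 members were called lower without y1w1118 replicate 1 and 19 without y1w1118 replicate 2.

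**Figure D1:**
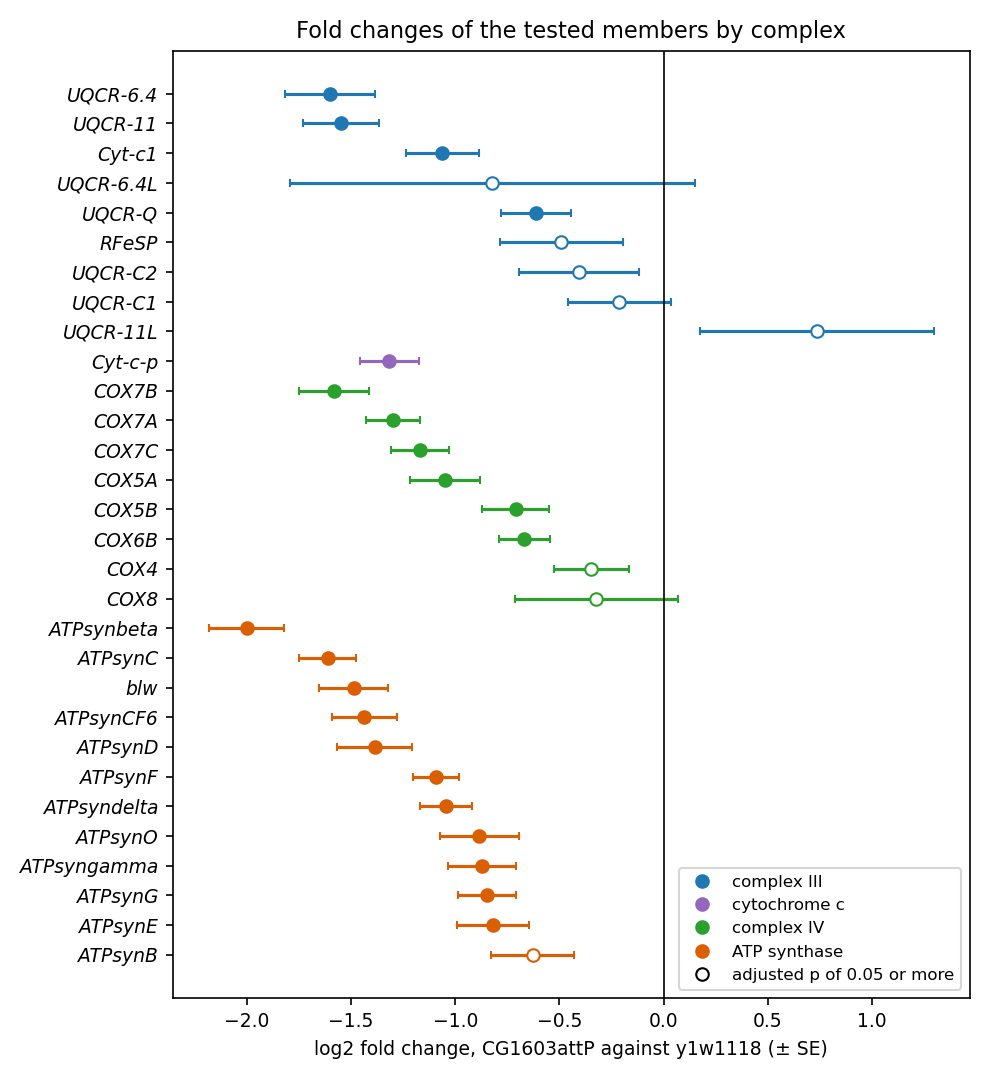
The log2 fold change of each of the 30 members tested (x axis; points with bars of 1 SE), grouped by complex; filled points passed an adjusted p of 0.05. The 22 filled points all lie below 0, and the open points are ATPsynB, COX4, COX8, RFeSP, UQCR-C1, UQCR-C2 and the copies UQCR-11L and UQCR-6.4L.

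The ATP synthase showed lower expression in each of its parts. All 4 genes of the F1 head and central stalk were lower in CG1603attP, 3 of the 4 genes of the peripheral stalk, and all 4 genes of the membrane part measured here. ATPsynbeta (chr4:1031484-1034917 of dm6), the catalytic beta subunit, had 1032, 1476 and 1349 CPM in CG1603attP and 4930 and 5368 CPM in y1w1118. The mutant mean was 1286 ± 229 CPM and the wild-type mean 5149 ± 309 CPM, so the fitted level fell to 25.0% (log2 fold change -2.00 ± 0.18, edgeR adjusted p = 0.000781). Its fold change was the lowest of the 30 members, and the mutant libraries stood far below the wild-type ones. The alpha subunit, blw (bellwether), alternates with beta in the head and had 1216, 1111 and 1493 CPM in CG1603attP and 3819 and 3320 CPM in y1w1118 (log2 fold change -1.49 ± 0.17, edgeR adjusted p = 0.00145). The ratio of ATPsynbeta to blw per exonic length was 0.801, 1.25 and 0.853 in CG1603attP and 1.22 and 1.53 in y1w1118, and its ranges overlapped.

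The central stalk turns inside the head and carries its motion to the c ring. ATPsyngamma, its shaft, had 389, 349 and 483 CPM in CG1603attP and 794 and 695 CPM in y1w1118 (log2 fold change -0.87 ± 0.16, edgeR adjusted p = 0.00885). ATPsyndelta, a subunit at the foot of the shaft, had 178, 180.4 and 206 CPM in CG1603attP and 418 and 359 CPM in y1w1118 (log2 fold change -1.04 ± 0.12, edgeR adjusted p = 0.0018). Both genes fell, with no overlap between the genotypes. In the annotation, 35.6% of the exonic bases of ATPsyndelta overlap CG2962, and reads over both genes were set aside, so its level is a lower estimate. With both columns for stranded libraries summed, its log2 fold change was -0.84 (edgeR adjusted p = 0.0116). The epsilon subunit, the other gene of the foot, is named sun in flies and lies outside the naming rule. It had 35.1, 60.1 and 35.0 CPM in CG1603attP and 210 and 193 CPM in y1w1118 and fell as well (log2 fold change -2.21 ± 0.25, edgeR adjusted p = 0.00161).

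In the membrane part, ATPsynC, whose protein forms the c ring, had 1090, 1281 and 1340 CPM in CG1603attP and 3772 and 3798 CPM in y1w1118 (log2 fold change -1.61 ± 0.14, edgeR adjusted p = 0.000648). It lies at chr3R:31216145-31219630, and its mutant mean of 1237 ± 130.5 CPM stood against a wild-type mean of 3785 ± 18.8 CPM. The small membrane subunit ATPsynF had 216, 188 and 203 CPM in CG1603attP and 440.5 and 422 CPM in y1w1118 (log2 fold change -1.09 ± 0.11, edgeR adjusted p = 0.00103). Both genes fell to under the lowest wild-type library in every mutant library. ATPsynG, which with ATPsynE is known from yeast and mammals for holding ATP synthase dimers together, had 83.0, 88.3 and 107 CPM in CG1603attP and 168 and 165 CPM in y1w1118 (log2 fold change -0.85 ± 0.14, edgeR adjusted p = 0.00581). ATPsynE had 54.4, 62.8 and 76.5 CPM in CG1603attP and 119 and 108 CPM in y1w1118 (log2 fold change -0.82 ± 0.17, edgeR adjusted p = 0.0134). These were the 2 lowest expressed of the 12 ATP synthase genes tested in y1w1118, and they fell without overlap between the genotypes.

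The peripheral stalk holds the head still while the ring turns. ATPsynCF6, coupling factor 6, had 147, 201 and 153 CPM in CG1603attP and 446 and 459 CPM in y1w1118 (log2 fold change -1.44 ± 0.16, edgeR adjusted p = 0.00134). ATPsynD, subunit d, had 197, 263 and 181 CPM in CG1603attP and 601 and 516 CPM in y1w1118 (log2 fold change -1.39 ± 0.18, edgeR adjusted p = 0.0024). ATPsynO, the subunit that fixes the stalk to the top of the head (OSCP), had 158, 136 and 206 CPM in CG1603attP and 330.3 and 284 CPM in y1w1118 (log2 fold change -0.88 ± 0.19, edgeR adjusted p = 0.0143). These 3 genes fell, ATPsynO by the least. ATPsynB, the long subunit b of the stalk, had 313, 329 and 483 CPM in CG1603attP and 571 and 587 CPM in y1w1118, and it did not pass the test (log2 fold change -0.63 ± 0.20, edgeR adjusted p = 0.0555). All 3 mutant libraries of ATPsynB were below the wild-type ones, with replicate 3 standing closest to them. ATPsynB passed with DESeq2 (adjusted p = 0.0118), with the current form of the edgeR fit (adjusted p = 0.0416), without the filter on low counts (adjusted p = 0.0286) and without CG1603attP replicate 3 (adjusted p = 0.00571). The calls of ATPsynO, ATPsynE, ATPsynG and ATPsyngamma rested on the wild-type libraries: without y1w1118 replicate 1 their edgeR adjusted p-values were 0.105, 0.111, 0.0568 and 0.0716, and 7 ATP synthase genes were called. Without y1w1118 replicate 2, the edgeR adjusted p of ATPsynE was 0.0637.

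**Figure D2:**
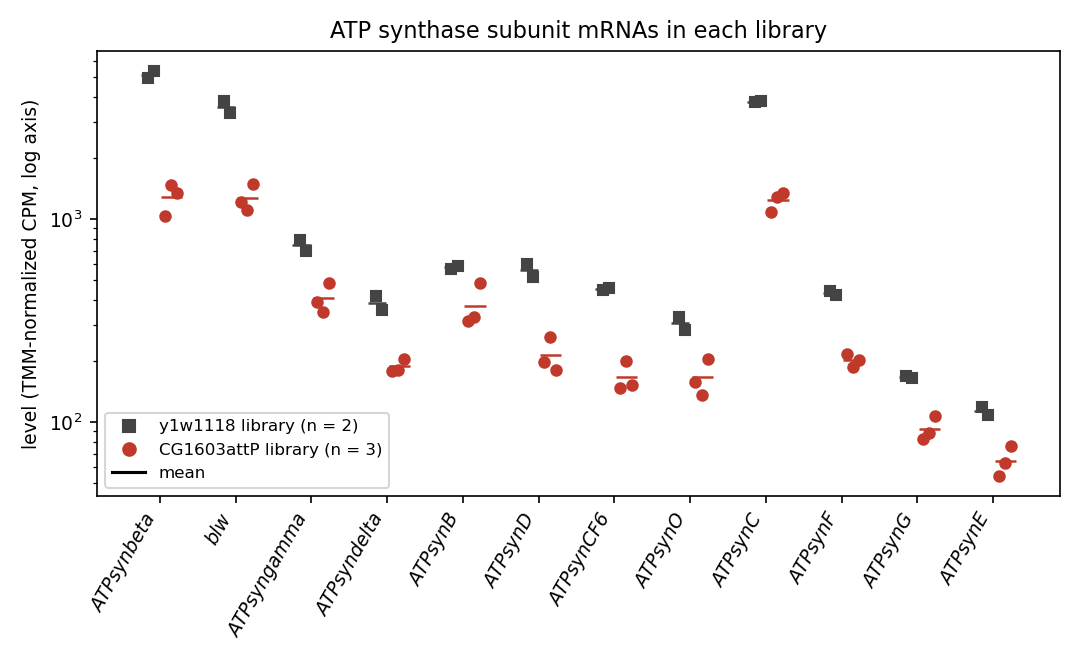
TMM-normalized CPM (log axis) of the 12 commonly expressed ATP synthase genes in each library, ordered by head and central stalk, peripheral stalk and membrane part; short lines are means. For every gene the 3 CG1603attP circles lie below the 2 y1w1118 squares, and the gap is widest for ATPsynbeta and narrowest for ATPsynB.

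Levels per exonic length put the ATP synthase mRNAs on a common scale. In y1w1118, ATPsynbeta had 2066 and 2250 CPM per kb, ATPsynC 2019 and 2033 and blw 1696 and 1474, while ATPsynB had 622 and 639. In CG1603attP, ATPsynbeta had 432, 618 and 565 CPM per kb, ATPsynC 584, 686 and 717, blw 539.8, 493 and 663 and ATPsynB 341, 358 and 526. The ratio of ATPsynbeta to ATPsynB per length was 1.27, 1.73 and 1.07 in CG1603attP and 3.32 and 3.52 in y1w1118. The ratio of ATPsynC to ATPsynB was 1.71, 1.91 and 1.36 in CG1603attP and 3.24 and 3.18 in y1w1118. Neither ratio overlapped between the genotypes, but these pairs were chosen after their values were seen, and the ratios were not tested. Across the 12 ATP synthase genes, Spearman's rho between the log2 fold change and the mean log2 CPM was -0.64, and across the 16 commonly expressed genes tested of complex III, complex IV and cytochrome c it was 0.37. The genes share the same 5 libraries, so these values are a description.

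Complex III held both called and uncalled genes. Of its 8 commonly expressed genes, 7 were tested and 4 of them were lower in CG1603attP: Cyt-c1 and the small subunits UQCR-6.4, UQCR-11 and UQCR-Q. The core proteins UQCR-C1 and UQCR-C2 and the Rieske iron-sulfur protein RFeSP did not pass the test. Cyt-c1, the heme subunit that hands electrons to cytochrome c, had 219.7, 192 and 278 CPM in CG1603attP and 514 and 446 CPM in y1w1118 (log2 fold change -1.06 ± 0.17, edgeR adjusted p = 0.00552). RFeSP, which passes electrons from ubiquinol to cytochrome c1, had 154, 98.0 and 199.7 CPM in CG1603attP and 245 and 179 CPM in y1w1118 (log2 fold change -0.49 ± 0.30, edgeR adjusted p = 0.262). The mutant libraries of RFeSP spread widely, and replicate 3 lay between the 2 wild-type libraries.

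UQCR-6.4, the smallest subunit, had 30.2, 41.5 and 49.5 CPM in CG1603attP and 126 and 119.5 CPM in y1w1118 (log2 fold change -1.60 ± 0.22, edgeR adjusted p = 0.00268). UQCR-11, the hinge-type acidic subunit, had 33.7, 42.2 and 39.6 CPM in CG1603attP and 96.8 and 129 CPM in y1w1118 (log2 fold change -1.55 ± 0.18, edgeR adjusted p = 0.00173). Among the 7 commonly expressed members of complex III tested, these 2 genes had the lowest fold changes, with mutant means of 40.4 ± 9.68 and 38.5 ± 4.34 CPM. UQCR-11 is at chr3L:25120709-25126171, inside the interval that the study assigns to heterochromatin, and it was the only commonly expressed member there. In UQCR-6.4, 40.5% of the exonic bases overlap the gene POSH. UQCR-Q, a small subunit that contacts cytochrome b, had 95.6, 117 and 136 CPM in CG1603attP and 167 and 188 CPM in y1w1118 (log2 fold change -0.61 ± 0.17, edgeR adjusted p = 0.0353). It was the weakest of the 22 calls: it was lost with library size as the only scaling (edgeR adjusted p = 0.0775) and without any library other than CG1603attP replicate 3 (0.0682 and 0.0821 without CG1603attP replicates 1 and 2, and 0.113 and 0.202 without y1w1118 replicates 1 and 2).

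The core proteins, the largest subunits of the complex, were not called. UQCR-C1 had 586, 416 and 769 CPM in CG1603attP and 733 and 636 CPM in y1w1118 (log2 fold change -0.21 ± 0.25, edgeR adjusted p = 0.569), and UQCR-C2 had 305, 199.7 and 408 CPM and 456 and 349.9 CPM (log2 fold change -0.40 ± 0.29, edgeR adjusted p = 0.343). In both, CG1603attP replicate 2 was the lowest of the 5 libraries. CG1603attP replicate 3 was the highest of the 5 for UQCR-C1 and lay between the wild-type libraries for UQCR-C2, so the genotypes overlapped. Without CG1603attP replicate 2 the fold change of UQCR-C1 was 0.01 on the log2 scale. The ratio of UQCR-6.4 to UQCR-C1 per exonic length was 0.150, 0.291 and 0.187 in CG1603attP and 0.499 and 0.547 in y1w1118. That of Cyt-c1 to UQCR-C1 was 0.402, 0.495 and 0.388 in CG1603attP and 0.752 and 0.752 in y1w1118. The mRNAs of Cyt-c1 and UQCR-6.4 were thus a smaller part, relative to the core, in every mutant library, in pairs that were chosen after their values were seen.

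UQCR-14, the remaining small subunit, could not be measured by the unstranded counts. It had 0 reads in every library, because 100% of its exonic bases overlap CG32576 on the opposite strand and reads over both genes are set aside. In the deposited columns for stranded libraries, which assign such a read to the gene on the strand it matches, the sums for UQCR-14 were 799, 1015 and 526 reads in CG1603attP and 1960 and 1720 in y1w1118. These sums are 53.4, 73.7 and 55.7 CPM against 192 and 199.5 CPM, and a fit to the summed columns gave a log2 fold change of -1.66 ± 0.17 (edgeR adjusted p = 0.000932). The library kit does not keep the strand, so reads of UQCR-14 and CG32576 cannot be told apart in the shared bases. Outside these bases CG32576 had 208, 227 and 189 reads in CG1603attP and 147 and 188 in y1w1118 (log2 fold change -0.11, edgeR adjusted p = 0.806).

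Cytochrome c, the soluble carrier between complexes III and IV, is encoded by neighbouring genes 296 bp apart on chromosome arm 2L. Cyt-c-p, the somatic form, had 269.5, 351 and 341 CPM in CG1603attP and 776 and 821 CPM in y1w1118, and it fell to 40.1% (log2 fold change -1.32 ± 0.14, edgeR adjusted p = 0.00133). Cyt-c-d, the form of the male germ line, had 0, 0 and 0 unstranded reads in CG1603attP and 6 and 1 in y1w1118, too few for a test, but 36.4% of its exonic bases overlap CG31808 on the opposite strand. In the summed columns for stranded libraries it had 204, 203 and 76 reads in CG1603attP and 80 and 58 in y1w1118, which is 13.6, 14.8 and 8.05 CPM against 7.85 and 6.73 CPM (log2 fold change 0.76 ± 0.35, edgeR adjusted p = 0.152). These sums were the higher ones in the mutant and did not pass the test. The bases that Cyt-c-d does not share held only the unstranded reads given above. Outside the shared bases CG31808 had 787, 828 and 396 reads in CG1603attP and 359 and 335 in y1w1118. The sums are therefore not a measure of Cyt-c-d. CG31808 had a log2 fold change of 0.48 ± 0.21 outside the shared bases (edgeR adjusted p = 0.133). Per exonic length Cyt-c-p was the fourth highest of the commonly expressed members in y1w1118, after ATPsynbeta, ATPsynC and blw.

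Of the 8 commonly expressed complex IV genes, 6 were lower in CG1603attP and 2, COX4 and COX8, did not pass the test. COX7B had 47.1, 61.7 and 44.9 CPM in CG1603attP and 156 and 150.5 CPM in y1w1118 (log2 fold change -1.58 ± 0.17, edgeR adjusted p = 0.00121). COX7A had 183, 232 and 199.7 CPM in CG1603attP and 495 and 513 CPM in y1w1118 (log2 fold change -1.30 ± 0.13, edgeR adjusted p = 0.00103), and COX7C had 53.6, 66.5 and 60.6 CPM and 141 and 130.5 CPM (log2 fold change -1.17 ± 0.14, edgeR adjusted p = 0.00176). In mammals these subunits span the membrane once beside the catalytic core, and all 3 fell. In COX7C, 15.7% of the exonic bases overlap oys, and with both stranded columns summed its log2 fold change was -0.84.

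In the mammalian enzyme, COX5A and COX5B bind the matrix face and COX6B the outer face. COX5A had 89.9, 110 and 118 CPM in CG1603attP and 247 and 192 CPM in y1w1118 (log2 fold change -1.05 ± 0.17, edgeR adjusted p = 0.00514). COX5B had 73.3, 85.9 and 100.0 CPM in CG1603attP and 132 and 150.1 CPM in y1w1118 (log2 fold change -0.71 ± 0.16, edgeR adjusted p = 0.017). COX6B had 126, 142 and 127 CPM in CG1603attP and 225 and 193 CPM in y1w1118 (log2 fold change -0.67 ± 0.12, edgeR adjusted p = 0.00854). All 3 fell, COX5B and COX6B by less than COX5A. Without y1w1118 replicate 1, their edgeR adjusted p-values were 0.0534, 0.0760 and 0.104, and 3 complex IV genes were called. COX5B was also lost without y1w1118 replicate 2 (edgeR adjusted p = 0.131).

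COX4, the largest nuclear subunit, had 304, 236 and 353 CPM in CG1603attP and 399 and 358 CPM in y1w1118 (log2 fold change -0.35 ± 0.18, edgeR adjusted p = 0.197). Its mutant libraries all lay below the wild-type ones, but replicate 3 by only a few CPM. COX8 had 10.1, 10.2 and 21.3 CPM in CG1603attP and 19.6 and 14.8 CPM in y1w1118 (log2 fold change -0.32 ± 0.39, edgeR adjusted p = 0.585), the lowest levels of the commonly expressed members with reads, and the genotypes overlapped. The ratio of COX7A to COX4 per exonic length was 1.06, 1.73 and 0.998 in CG1603attP and 2.19 and 2.53 in y1w1118, again in a pair chosen after its values were seen.

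**Figure D3:**
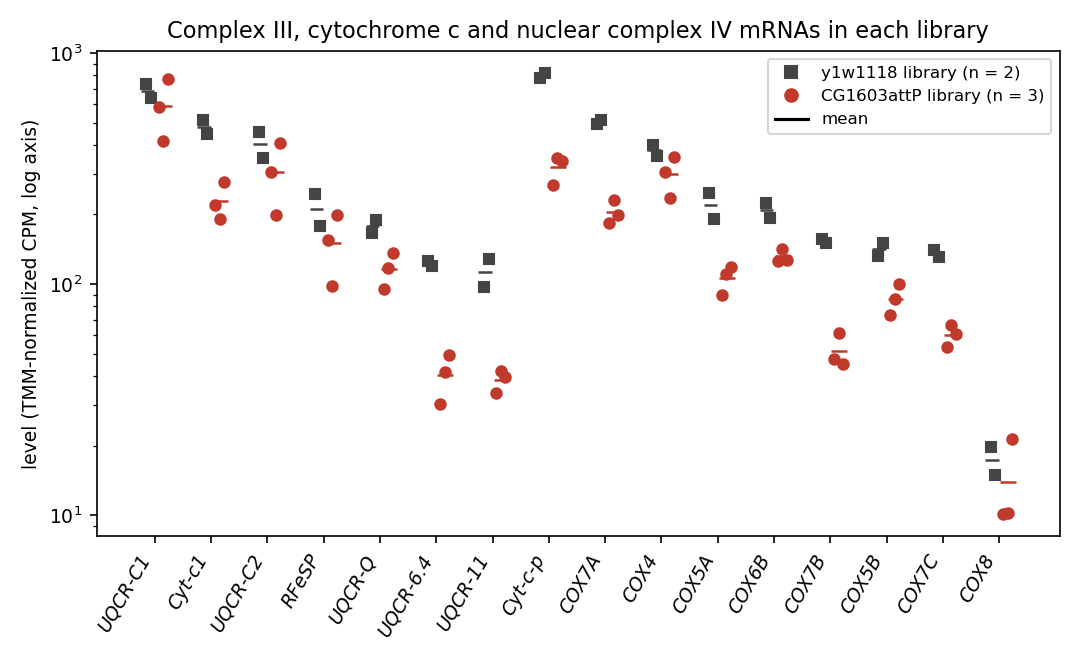
TMM-normalized CPM (log axis) of the commonly expressed complex III genes, Cyt-c-p and the nuclear complex IV genes in each library; short lines are means, and UQCR-14 with 0 reads is not drawn. The circles of CG1603attP overlap the squares of y1w1118 for UQCR-C1, UQCR-C2, RFeSP and COX8 and lie below them for the other genes.

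On a common scale of level per exonic length, the genes of a complex were far from equal. In y1w1118 the mean was 419 CPM per kb for UQCR-C1, 315 for Cyt-c1, 218 for UQCR-6.4 and 70.0 for UQCR-11 in complex III. In complex IV it ran from 723 CPM per kb for COX7A to 33.6 for COX8, and in the ATP synthase from 2158 for ATPsynbeta to 102 for ATPsyndelta. In CG1603attP the mean of ATPsynC was 662 CPM per kb, that of blw 565 and that of ATPsynbeta 539, and the library values of ATPsynbeta and blw overlapped, as did those of ATPsynC and ATPsynbeta. In y1w1118, ATPsynbeta and ATPsynC were above blw in both libraries. Exonic length is the summed length of all annotated exons, so a gene with long alternative ends has a lower value on this scale. Bases shared with another gene also enter the length while their reads are set aside, as in ATPsyndelta.

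**Figure D4:**
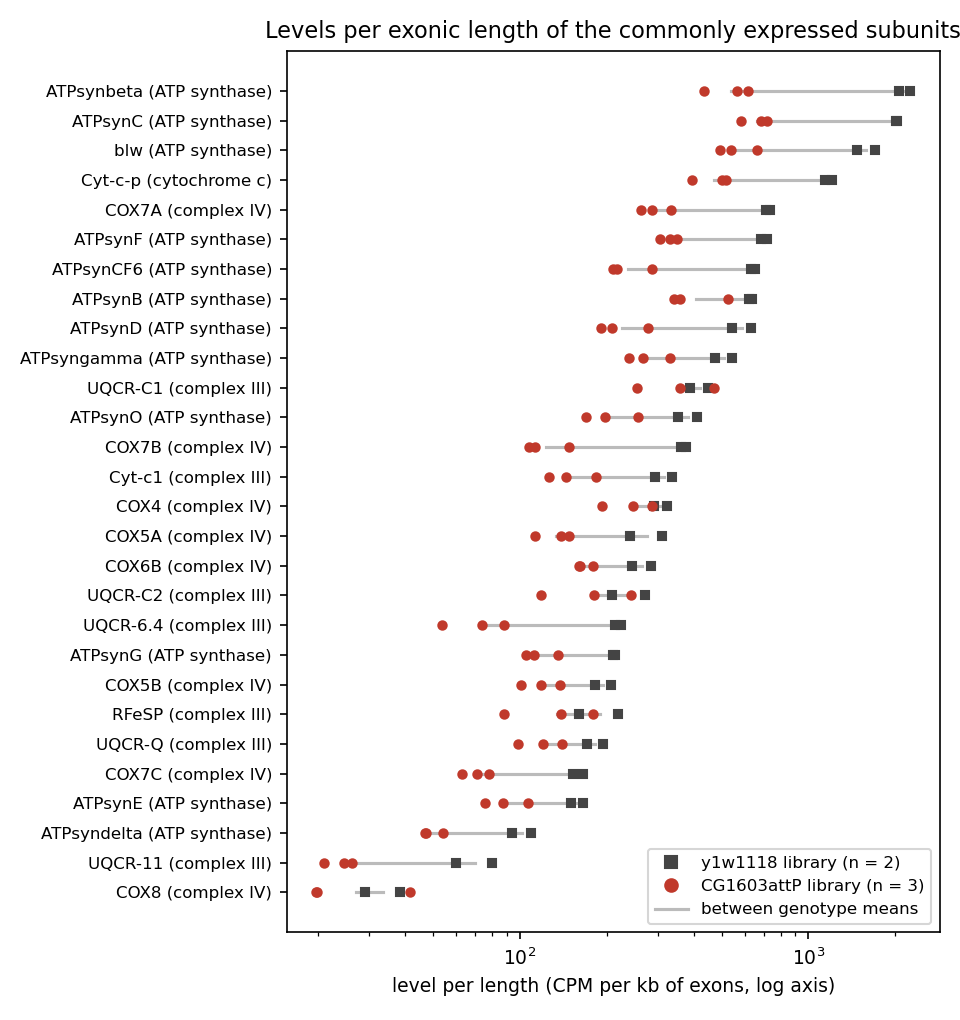
Level per kb of annotated exons (CPM per kb, log axis) of the 28 commonly expressed members with unstranded reads, in order of the y1w1118 mean; squares and circles are libraries and grey lines join the genotype means. The 3 genes at the top, ATPsynbeta, ATPsynC and blw, lie at 1474 CPM per kb or more in y1w1118 and at 717 CPM per kb or less in CG1603attP.

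The like-named copies had few unstranded reads in both genotypes. Of the 16, ATPsynGL, COX5BL, COX6AL2 and COX6CL had 0 reads in every library, which allows up to 0.348 CPM in the shallowest one. For COX5BL this holds no information, since 100% of its exonic bases overlap Trmt6 (14, 10 and 0 reads in CG1603attP and 17 and 14 in y1w1118 in the summed columns for stranded libraries), and COX6AL2 overlaps Prp6 and Ir75d over 67.0% of them. Summed, the 16 copies had 6.54, 8.21 and 6.78 CPM in CG1603attP and 5.40 and 11.8 CPM in y1w1118, with overlapping ranges and with the shared bases of Cyt-c-d and COX5BL left out. UQCR-11L was the only one with at least 20 reads in every library: it had 52, 43 and 58 reads in CG1603attP and 21 and 26 in y1w1118 (log2 fold change 0.74 ± 0.56, edgeR adjusted p = 0.374). All 3 mutant values were above the wild-type ones, on a scale far below that of UQCR-11. UQCR-6.4L had 19, 10 and 6 reads in CG1603attP and 5 and 23 in y1w1118 (log2 fold change -0.82 ± 0.97, edgeR adjusted p = 0.574), and its range overlapped.

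ATPsynepsilonL, a copy of sun, had 0 reads in each CG1603attP library and 5 and 31 in y1w1118, where replicate 2 gave most of them, and it was called lower when no filter was used. COX6AL had 7, 33 and 0 reads in CG1603attP and 3 and 2 in y1w1118, so that CG1603attP replicate 2 held most of its reads. ATPsynbetaL had 3, 11 and 0 reads and 1 and 4 reads, COX4L 10, 10 and 0 and 2 and 0, and COX7CL 3, 2 and 0 and 6 and 9, in the same order. Their commonly expressed relatives had far more: sun had at least 331 reads in every library, COX7C 572, COX4 3088 and ATPsynbeta 12739. The remaining copies (ATPsynCF6L, COX7AL, COX7AL2 and UQCR-14L) had at most 3 reads in any library. COX5B, COX7A and COX7C stand beside their copies on the chromosome, with gaps of 122, 2625 and 281 bp. Markers of the testis, where such copies are used, were listed for 20 genes, of which 19 were found and 9 tested: 1, loh, was lower and 0 higher. The gene loh is not a specific marker of the testis, so its call says nothing of that organ. The summed level of the list was from 55.7 to 66.0 CPM in CG1603attP and from 76.8 to 89.1 CPM in y1w1118. Much of it came from loh, with a mean of 16.3 CPM in CG1603attP and 34.4 CPM in y1w1118, so the sum is not a measure of the testis. Another large part came from fzo, with a mean of 23.7 CPM in CG1603attP and 28.5 CPM in y1w1118 and overlapping ranges. Of the 9 genes tested, 6 had a negative fold change. The gene sa was lower in every mutant library (log2 fold change -0.84 ± 0.39, edgeR adjusted p = 0.156). In contrast, topi was higher in every one, with 38, 41 and 22 reads in CG1603attP and 6 and 5 in y1w1118 (log2 fold change 2.14 ± 0.71, edgeR adjusted p = 0.0646). Among the genes not tested, betaTub85D had 4, 4 and 20 reads in CG1603attP and none in y1w1118, and Mst84Dd had none in any library.

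The subunits of the same complexes that the naming rule leaves out were compared next. Of 8 such subunits and assembly factors, 7 were tested and 5 were lower: sun, Scox, ox, cype and Cchl, with log2 fold changes of -2.21, -2.00, -1.62, -1.04 and -0.75. cype, the fly subunit 6C of complex IV, had 28.8, 28.3 and 34.1 CPM in CG1603attP and 69.6 and 55.1 CPM in y1w1118 (edgeR adjusted p = 0.00854, and 0.0878 without y1w1118 replicate 1). ox, a small subunit of complex III, had 2.87, 6.32 and 3.81 CPM and 13.4 and 13.3 CPM (edgeR adjusted p = 0.0246, and 0.140 and 0.132 without y1w1118 replicates 1 and 2). Scox, a copper chaperone for complex IV, had 12.0, 15.1 and 5.93 CPM in CG1603attP and 44.9 and 43.9 CPM in y1w1118 (edgeR adjusted p = 0.00896, and 0.0513 without y1w1118 replicate 1). Cchl, which attaches heme to cytochrome c, was called at the margin (edgeR adjusted p = 0.0491) and lost its call without any library other than CG1603attP replicate 3 (edgeR adjusted p = 0.10 in both fits without CG1603attP replicates 1 and 2, and 0.293 and 0.113 without y1w1118 replicates 1 and 2). levy, the fly subunit 6A, had 130.2, 130.4 and 194 CPM in CG1603attP and 243 and 208 CPM in y1w1118 (log2 fold change -0.57 ± 0.20, edgeR adjusted p = 0.0753, and 0.00982 without CG1603attP replicate 3). Surf1, an assembly factor of complex IV, overlapped between the genotypes (log2 fold change -0.26 ± 0.36, edgeR adjusted p = 0.63). Cyt-c1L had at most 4 reads in any library and was not tested.

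The mtDNA-encoded partners of these subunits were lower as well. Of 6 genes, 5 were lower, with a median log2 fold change of -1.35. mt:CoI, the catalytic core of complex IV, had 4446, 5744 and 4258 CPM in CG1603attP and 12880 and 15830 CPM in y1w1118 (log2 fold change -1.58 ± 0.20, edgeR adjusted p = 0.00228). mt:CoII and mt:CoIII had log2 fold changes of -1.36 and -1.14, and mt:Cyt-b, the mtDNA-encoded subunit of complex III, had 1951, 2688 and 1823 CPM and 4998 and 5966 CPM (log2 fold change -1.35 ± 0.21, edgeR adjusted p = 0.00423). mt:CoIII was not called without y1w1118 replicate 2 (edgeR adjusted p = 0.0611). The 2 mtDNA-encoded subunits of the ATP synthase gave unlike values: mt:ATPase8 had 65.9, 75.5 and 50.7 CPM in CG1603attP and 200.3 and 208 CPM in y1w1118 (log2 fold change -1.67 ± 0.18, edgeR adjusted p = 0.00122). mt:ATPase6, which forms the proton channel, had 1606, 2159 and 1551 CPM and 2166 and 2694 CPM (log2 fold change -0.46 ± 0.19, edgeR adjusted p = 0.122), and it passed with DESeq2 (adjusted p = 0.0488) and without CG1603attP replicate 2 (edgeR adjusted p = 0.0368). These genes overlap, and reads over both were set aside. As mt:ATPase8 is only 162 bp long, many of its reads can be lost in this way. Its level per length is thus a lower estimate, and the loss in each library was not measured. The level of mt:ATPase6 per exonic length was 5.85, 6.86 and 7.34 times that of mt:ATPase8 in CG1603attP and 2.60 and 3.11 times in y1w1118, a pair chosen after its values were seen. Poly(A) selection also bears on mtDNA-encoded RNAs, whose tails are short, and its part in these levels was not tested.

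Summed, the mtDNA-encoded subunits had 12000, 16370 and 11690 CPM in CG1603attP and 29790 and 36060 CPM in y1w1118, a mutant mean of 40.6% of the wild-type mean, beside 40.1% for the nuclear members. Complex II, which has no mtDNA-encoded subunit, had 2 of its 5 tested genes lower: SdhA, the flavoprotein, at -1.16 ± 0.13 (edgeR adjusted p = 0.00132) and SdhB, the iron-sulfur subunit, at -0.66 ± 0.20 on the log2 scale (edgeR adjusted p = 0.0487). SdhB lost its call without any library other than CG1603attP replicate 3 (edgeR adjusted p = 0.0872 without CG1603attP replicate 1, 0.0816 without CG1603attP replicate 2, 0.326 without y1w1118 replicate 1 and 0.0778 without y1w1118 replicate 2). The membrane anchors SdhC and SdhD had log2 fold changes of -0.30 and -0.31, and their libraries overlapped, like those of the complex III core. The complex II sum was 439.9, 371 and 515 CPM in CG1603attP and 876 and 794 CPM in y1w1118.

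Of 6 carriers that feed the ATP synthase with ADP and phosphate or let metabolites pass the outer membrane, 2 were lower: Mpcp1, a phosphate carrier, at -1.70 ± 0.26 and porin, the outer membrane channel, at -0.92 ± 0.13 on the log2 scale (edgeR adjusted p = 0.00443 and 0.00354). The abundant phosphate carrier Mpcp2 had 1472, 1276 and 1608 CPM in CG1603attP and 1939 and 1889 CPM in y1w1118 (log2 fold change -0.40 ± 0.14, edgeR adjusted p = 0.0732). The main ADP/ATP translocase sesB had 3230, 3342 and 3800 CPM in CG1603attP and 4489 and 4376 CPM in y1w1118 (log2 fold change -0.36 ± 0.14, edgeR adjusted p = 0.103). Neither passed this test, both passed with DESeq2 (adjusted p = 0.0116 for Mpcp2 and 0.0113 for sesB), and both lay below the wild-type range in every mutant library. Ant2 and Porin2, with at most 6.90 CPM, overlapped between the genotypes. The carrier sum was 72.6% of the wild-type mean, against 34.9% for the nuclear ATP synthase genes.

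**Figure D5:**
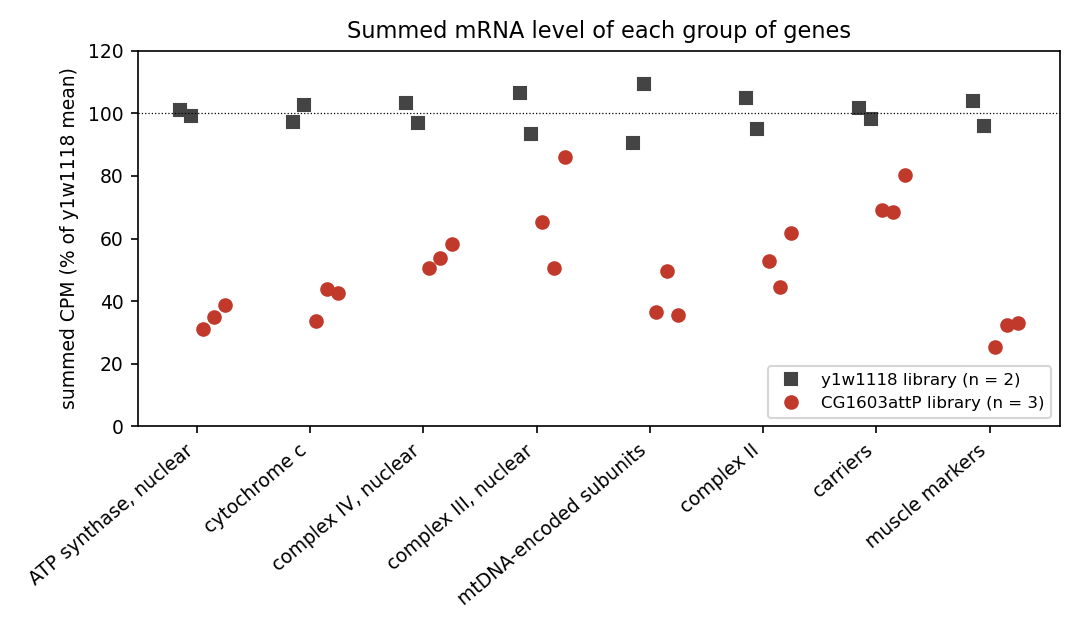
Summed CPM of each group of genes in each library, as a percentage of the y1w1118 mean (y axis, from 0). The circles of CG1603attP lie at or below 38.7% for the ATP synthase and 32.9% for the muscle markers, from 50.6% to 85.9% for complex III, and from 68.6% to 80.3% for the carriers.

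Markers of cell types differed between the genotypes as well, in both directions. All 18 body wall muscle markers, among them Mhc, Act57B and wupA, were lower in CG1603attP, with a median log2 fold change of -1.56 and none at 0 reads. Their summed level was 22840, 29280 and 29700 CPM in CG1603attP and 93960 and 86720 CPM in y1w1118. Of 13 markers of dividing cells tested, 12 were lower (median -2.19), and their summed level was from 91.7 to 154 CPM in CG1603attP and from 506 to 524 CPM in y1w1118. Of 9 gut enterocyte markers tested, 6 were higher and 0 lower, with a summed level from 3179 to 5033 CPM in CG1603attP and from 996 to 1008 CPM in y1w1118. Of 5 fat body markers tested, apolpp was lower and Lpin higher, and the larval serum proteins Lsp1alpha, Lsp1beta, Lsp1gamma and Lsp2, which rise late in the third instar, had at most 93 reads in any library. In whole larvae, fewer cells of a type and less RNA per cell cannot be told apart. The part of these cell types, or of a difference in age within the instar, in the lower levels of the members was not tested.

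The promoters at which the study lists an Mzfp1 peak in embryos included 7 members: ATPsynF and COX6B with the Mzfp1 motif, and ATPsynbeta, ATPsynC, UQCR-Q, COX8 and UQCR-11 without it. Of these 7 genes, 6 were lower in CG1603attP, with a median log2 fold change of -1.09. The exception was COX8. Of the 21 commonly expressed genes tested without a listed peak, 16 were lower, with a median of -1.04. The lists came from another stage than the larvae measured here, and the difference between these groups was not tested. The study detected Mzfp1 better in adult flies than in embryos, so a gene without a listed peak may still be bound.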

How the data were processed

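RNA-seq was performed on 3 CG1603attP and 2 y1w1118 libraries of third-instar larvae. After trimming with cutadapt, reads were mapped on dm6 by the authors with STAR, and the deposited values are its raw gene counts (GeneCounts). The sources used here give neither the STAR version nor the annotation release. The unstranded counts were used, since the kit does not mark the strand. Reads with several alignments or over more than one gene are not counted, so overlapping genes are undercounted: ambiguous reads were 3.28% to 6.26% of a library, multimapping reads 5.58% to 10.6%, unmapped reads 23.8% to 30.0% and reads outside genes 4.15% to 6.22%. The 4 summary lines and 138 ribosomal RNA genes (3.40% to 9.62% of reads on genes) entered neither library sizes nor tests.

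Tests were run with edgeR 4.0.16 (R 4.3.3): filterByExpr (minimum count 10, minimum total 15), TMM scaling, estimateDisp, the legacy form of glmQLFit, and glmQLFTest over 11045 genes, with Benjamini-Hochberg adjustment at 0.05, as in the study except for the filter. The common dispersion was 0.141, and SE was obtained by dividing the absolute log2 fold change by the root of F. Alternatives were other scalings and filters, DESeq2 1.42.0, the current quasi-likelihood fit, a replicate block, each library left out and, chosen after seeing the data, the sum of both stranded columns. The Ensembl annotation of dm6, which held all 45 members, gave exon lengths, overlaps and positions.

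The members and gene lists were chosen with earlier results of these data known. The text names each commonly expressed member, gives library values for those called or with an adjusted p from 0.05 to 0.1 and for further members described with them, gives CG1603 first, and names the called genes of each list. Gene ratios and further listed genes were chosen after their values were seen.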

Additional observations from a re-analysis of the deposited data

Results flagged for a closer look

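UQCR-14, which had 0 unstranded reads in every library, had at least 526 reads in each library in the columns for stranded libraries. The main comparisons of the report do not use these columns, and their sum enters only as an alternative. The lowest value, 526 reads, was in CG1603attP replicate 3, and the 2 y1w1118 libraries had 1960 and 1720. All exonic bases of UQCR-14 are shared with CG32576 on the opposite strand, so the reads belong to either gene. Cyt-c-d, with at most 6 unstranded reads, had at least 58 reads in each library in the same columns, 204, 203 and 76 in CG1603attP and 80 and 58 in y1w1118, and shares 36.4% of its exonic bases with CG31808 on the opposite strand. Its other bases were almost without reads, so these counts are not a measure of Cyt-c-d. No group held 4 or more libraries, so single libraries were not examined for standing apart from their group.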

How the results depend on the processing

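Over the settings that kept all libraries, including other scalings, filters and fits, from 21 to 24 members were lower and 0 higher, except 26 lower with a replicate block. Leaving out each library in turn gave from 14 to 23 members lower, from 7 to 12 of the ATP synthase, 3 or 4 of complex III and from 3 to 6 of complex IV, and from 1410 to 3540 of all genes called. The values 14, 7 and 3 came without y1w1118 replicate 1, where 1410 genes were called in all, and 1432 were called without y1w1118 replicate 2. In these fits the remaining wild-type library is assumed to vary like the mutant ones, and fewer samples enter. Of the members' fold changes under the alternatives, 2 changed sign, both of genes not called: with a library left out, UQCR-C1 ran from -0.42 to 0.0065 (positive without CG1603attP replicate 2) and UQCR-6.4L from -1.60 to 0.82 (positive without y1w1118 replicate 2). Ant2, not called either, changed sign with library size alone (0.11), with the replicate block (0.0345) and with a library left out (from -0.15 to 0.07, positive without CG1603attP replicates 1 and 3); the cause was not tested.

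Scaling by library size alone moved the median of all genes to 0.13 on the log2 scale and gave 1424 lower and 2080 higher genes, so that 40.6% of the calls were lower against 51.7%; 21 members were still lower. The replicate numbers are shared only by 2 pairs, whose deviations from the group means correlated at -0.528 and -0.288, and nothing else ties the samples; with the replicate block, 26 members and 2967 genes in all were called, and UQCR-C2, RFeSP, COX4 and ATPsynB were then lower. No assembly factor falls under the naming rule, which is case-sensitive (the genes are written Cox10, Cox11 and Cox17), so no value was computed for that group. Depth limits the copies: below 3 reads, up to 0.348 CPM, a difference was not detectable.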
